A study of Drosophila melanogaster with 3 samples.

Results

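The Drosophila melanogaster gene Eip75B (FBgn0000568, also called E75) is described here by the ChIP-seq summits of its own protein. Members are the summits that fall in the gene body or within 5 kb on either side, chr3L:17945953-18069696 on dm6, a stretch of 123744 bp. There were 40 such summits among the 7803 of the deposited list of optimal peaks, 38 of them in the gene body and 1 in each flank. Chromatin came from whole prepupae of both sexes, whose age the labels give as unknown, of the strain Eip75B-MiMIC-GFP, in which an intron of the gene carries an added exon that encodes eGFP, and was precipitated with anti-GFP antibody. All 3 biological replicates carry this tagged allele and form 1 group, with no untagged or untreated group. Where the insertion lies, which isoforms carry the tag and how deeply each library was sequenced are not stated in the labels or files. Depth is therefore unknown, and intervals around shares cover counting error only. In chromatin of whole animals, occupancy in more cells and occupancy on more copies per cell cannot be told apart.

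Eip75B is a nuclear receptor gene induced early by ecdysone, the steroid hormone that sets the timing of moulting and metamorphosis. Its protein holds heme in the ligand pocket, and it is known to repress targets of the related receptor Hr3. The gene uses alternative first exons joined to shared downstream exons. The forms known as E75A and E75C have the whole DNA-binding domain with its zinc fingers, whereas E75B lacks a zinc finger and binds DNA poorly on its own. Which annotated transcripts encode these forms was not examined.

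In the direction of transcription (minus strand), the 7 annotated transcripts start at 18064696 (RF), 18061453 (RE), 18059598 (RB), 18026032 (RG), 17999821 (RC), 17971439 (RA) and 17961814 (RD). Transcripts RF, RE and RB share their first coding base, 18059584. The other annotation consulted, RefSeq, gave all 7 of the same starts.

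The sequences at the summits that the results below turn on are given first, on the minus strand, with 50 bases on either side of the summit. The first pair are the summits with the highest signal, at chr3L:18011868-18011968 and chr3L:18009111-18009211. Capitals mark GAGAG or its complement CTCTC, the repeat bound by GAGA factor.
Summit 18011918: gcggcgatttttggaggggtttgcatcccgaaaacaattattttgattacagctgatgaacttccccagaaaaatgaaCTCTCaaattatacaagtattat
Summit 18009161: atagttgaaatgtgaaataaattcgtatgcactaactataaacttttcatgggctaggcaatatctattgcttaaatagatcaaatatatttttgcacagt

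The next windows hold the nuclear receptor half-site AGGTCA, or its complement TGACCT, in capitals, and are all of the Eip75B windows that do. They lie at chr3L:18063253-18063353, chr3L:18037825-18037925 and chr3L:18003304-18003404.
Summit 18063303: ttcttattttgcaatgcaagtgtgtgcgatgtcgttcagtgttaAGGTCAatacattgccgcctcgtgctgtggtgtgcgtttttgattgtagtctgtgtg
Summit 18037875: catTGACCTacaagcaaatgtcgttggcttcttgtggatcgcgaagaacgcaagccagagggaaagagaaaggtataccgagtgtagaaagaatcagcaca
Summit 18003354: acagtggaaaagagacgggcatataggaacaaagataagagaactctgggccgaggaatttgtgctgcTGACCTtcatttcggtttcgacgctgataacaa

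Capitals in the following windows again mark GAGAG or CTCTC. They lie upstream and downstream of the RA start, at chr3L:17972510-17972610 and chr3L:17968855-17968955, and hold the densest runs among the 10 strongest summits. The last sequence is the 100 bases before the RC start, chr3L:17999822-17999921, beside the strongest promoter summit.
Summit 17972560: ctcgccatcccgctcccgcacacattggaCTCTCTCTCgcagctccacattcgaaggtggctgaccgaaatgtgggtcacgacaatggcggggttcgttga
Summit 17968905: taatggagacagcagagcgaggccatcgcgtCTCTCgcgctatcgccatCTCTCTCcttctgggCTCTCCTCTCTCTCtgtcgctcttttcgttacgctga
RC upstream: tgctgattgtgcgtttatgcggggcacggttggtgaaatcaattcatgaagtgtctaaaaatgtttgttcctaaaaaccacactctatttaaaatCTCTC

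Summits were 3.23 per 10 kb over the Eip75B stretch and 0.580 per 10 kb over the rest of the arms in the optimal list, a ratio of 5.57. To compare replicates at equal length, the top list of a replicate was taken as its 7803 highest-signal regions. These held 42, 38 and 38 Eip75B summits in replicates 1, 2 and 3. Replicate 1 had the most and the others were equal. The density was 3.18 ± 0.187 per 10 kb over Eip75B, against 0.580 per 10 kb over the rest of the arms (SD, n = 3). The ratio was 5.85, 5.29 and 5.29 in the replicates, above 1 in 3 of 3. The log2 ratio was 2.45 ± 0.08 (SD, n = 3), and the exact permutation test by sign flips, two-sided, gave p = 0.25, the smallest that 3 replicates allow.

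Among the 307 protein-coding genes of 50 kb or more, with 5 kb on either side, Eip75B had the highest density. Genes at least as dense, Eip75B itself included, made up 0.326% of them. The median of these genes was 0.410 summits per 10 kb, and 64 held no summit. Its density was known when the gene was chosen, so its place is a description. The next were ftz-f1 (18 summits, 2.97 per 10 kb), which encodes the nuclear receptor of the mid-prepupal stage, sbb (26 summits, 2.92 per 10 kb), ush (19 summits, 2.56 per 10 kb), Tlk (20 summits, 2.51 per 10 kb) and shn (16 summits, 2.34 per 10 kb). In the replicate top lists, Eip75B had 3.18 ± 0.187 summits per 10 kb and sbb 3.03 ± 0.112 (SD, n = 3 each), means that differ by less than the SD of Eip75B. Eip75B came first and sbb second in each of the 3 replicates.

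**Figure D1:**
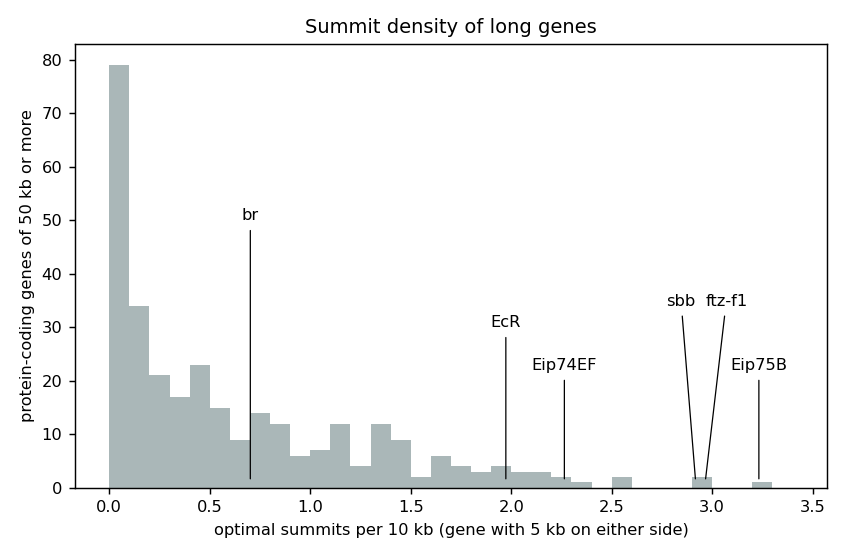
Histogram of optimal summits per 10 kb (horizontal axis) over the 307 protein-coding genes of 50 kb or more, each with 5 kb on either side, with the number of genes on the vertical axis. Eip75B lies at the far right at 3.23 per 10 kb, past ftz-f1 at 2.97 and sbb at 2.92.

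Of the other early or mid-prepupal genes of the ecdysone response, Eip74EF, an ETS factor gene, had 16 summits (2.26 per 10 kb), EcR, the hormone receptor, had 18 (1.97 per 10 kb), and Hr3, a nuclear receptor gene of 33354 bp, had 11 (2.54 per 10 kb). The broad-complex gene br had 7 (0.70 per 10 kb) over 89738 bp. From a list of 20 genes of the hierarchy, Eip75B included, 19 held at least 1 summit in the body or 5 kb flanks, against 50% of all 13945 protein-coding genes. The exception was Cth. Gene length was not matched between the list and all genes.

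Along the gene the summits were uneven. The stretch between the RG and RD starts, 64218 bp or 51.9% of the length, held 30 of the 40 summits, and its replicate top lists held 30, 30 and 29. The stretch was chosen after its values were seen. Between RA and RD there were 8 summits in 9625 bp, 8.31 per 10 kb. Between RG and RC there were 11 in 26211 bp (4.20 per 10 kb), and between RC and RA 11 in 28382 bp (3.88 per 10 kb). With overlapping regions merged, these intervals held 5, 9 and 10 regions. Summits in a top region of all 3 replicates numbered 3 of 8, 7 of 11 and 7 of 11. Between RB and RG there were 5 in 33566 bp, 1.49 per 10 kb.

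At the 5′ end, 2 summits lay in the 3243 bp between RF and RE (6.17 per 10 kb) and none in the 1855 bp between RE and RB. At the 3′ end, 1 summit lay in the 10862 bp from the RD start to the gene end, which holds the exons common to all transcripts.

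In the replicate top lists, density was 5.54 ± 2.16 per 10 kb from RA to RD, 4.58 ± 0.35 from RC to RA, 4.32 ± 0.58 from RG to RC and 1.49 ± 0.60 from RB to RG (SD, n = 3 each). The first of these intervals held 3, 6 and 7 summits in replicates 1, 2 and 3, so replicate 1 had the fewest there. The 3 intervals between RG and RD were each denser than RB to RG in 3 of 3 replicates. Among themselves they overlapped: RA to RD exceeded RC to RA in 2 of 3 replicates. The short RF to RE interval held 2 summits in each replicate top list, 6.17 per 10 kb. It was denser than RG to RC and RC to RA in 3 of 3 replicates, and than RA to RD in 1 of 3. Of 21 pairs of intervals compared, none can reach p below 0.25 with 3 replicates.

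**Figure D2:**
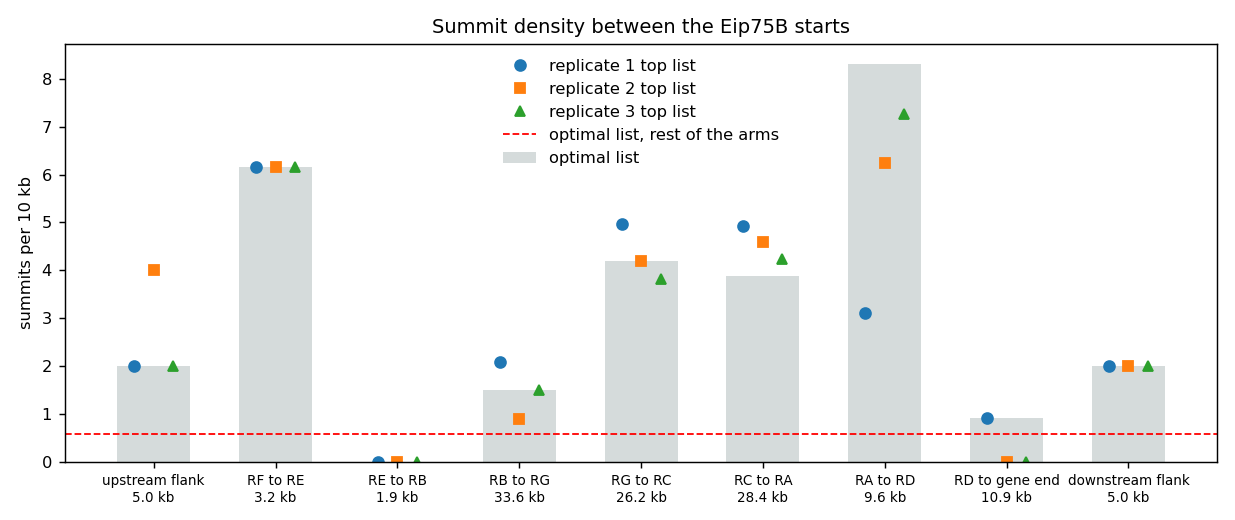
Summits per 10 kb (vertical axis) in each interval between neighbouring Eip75B starts and in both flanks, from 5′ to 3′, with the interval's length below its name. Bars are the optimal list, points the 3 replicate top lists, and the dashed line the 0.580 per 10 kb of the rest of the arms. RA to RD reaches 8.31 in the optimal list, where its 8 summits form 5 regions once overlapping regions are merged.

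The longest distances between neighbouring summits were 14233 bp, from 17961743 to 17947510 across the shared 3′ exons, and 10990 bp, between 18057944 and 18046954. The second distance spans an annotated roo transposon (18047763 to 18056761, 8999 bp), in which the pooled list and all 3 whole replicate lists had no summit. How reads from repeated sequence were handled is not stated in the labels or files, and its part in this gap was not tested. With the transposon left out, the RB to RG interval had 2.04 summits per 10 kb. The median distance between neighbours was 2059 bp.

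The summits with the highest signal lay in introns between RG and RC. Summit 18011918, 12097 bp upstream of the RC start, had a signal of 850 and rank 186 among all optimal summits. The regions that cover it had signals of 280, 258 and 309 in replicates 1, 2 and 3, with ranks 208, 217 and 158 of 30000. Summit 18009161, 9340 bp upstream of RC, had signal 820 and rank 204, with replicate signals of 298, 262 and 258 and ranks 180, 212 and 234. The pair held the first and second places of the locus in replicates 1 and 2, whereas in replicate 3 the RC promoter summit came between them.

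Of the remaining strongest 10, the RC promoter summit 17999791 had signal 668 (rank 338), 17964852 between RA and RD had 607 (rank 426), and 17972560, 1121 bp upstream of the RA start, had 538 (rank 570). Summit 17968905, 2534 bp downstream of the RA start, had 436 (rank 827), and 18029749, 3717 bp upstream of RG, had 434 (rank 837). The last 3 were 18005219 (423, rank 869), 18037675 (319, rank 1462) and 17978629 (307, rank 1549). Each of the 10 was covered by a top region in all 3 replicates except 18005219. In replicate 2, the region of rank 831 has its summit at 18005260, 41 bp away, and its borders leave 18005219 outside.

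**Figure D3:**
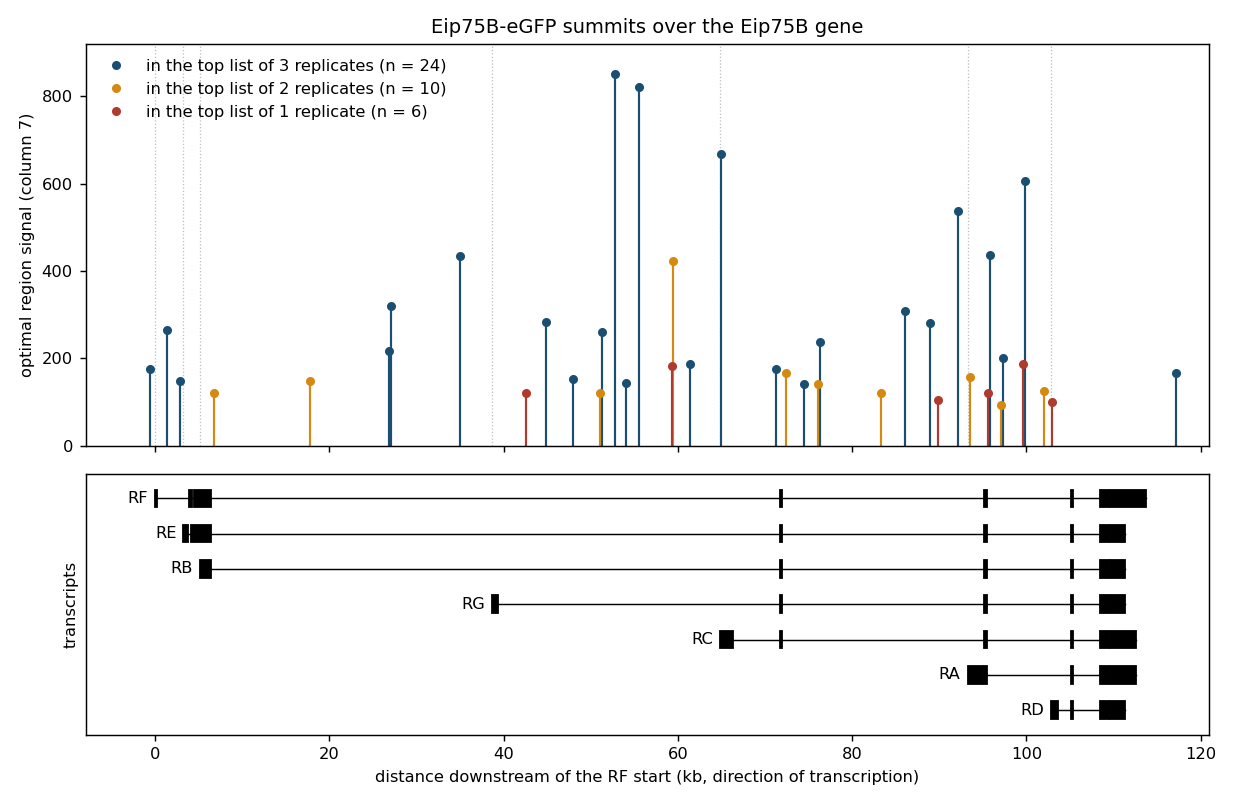
Signal of the 40 optimal summits (vertical axis, the deposited signal column) against distance downstream of the RF start in kb, in the direction of transcription; 3 colours give the number of replicate top lists with a region that covers the summit. Below, boxes are exons of the 7 transcripts (exons under 0.25 kb drawn at 0.25 kb) and dotted lines their starts; the highest summits, signals 850 and 820, stand between RG and RC.

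Of the 7 starts, 5 had an optimal summit within 1 kb, against 24.6% of the 19607 distinct protein-coding starts. Among the 190 genes with 5 or more starts, the median share of starts with a summit was 35.4%, and 32 genes had a share at least as high as the 71.4% of Eip75B. At RC, summit 17999791 lay 30 bp downstream, with replicate signals of 171, 233 and 259 and ranks 671, 298 and 231. At RA, summit 17971169 lay 270 bp downstream with signal 158 (rank 4121). Its replicate ranks were 8107, 3115 and 3930, so the region covering it in replicate 1 fell outside the top list. Upstream of the RA start, replicate 1 had another region, at 17971748, inside its top list (rank 7119), and replicate 3 had one at 17971704 (rank 3820).

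At RD, summit 17961743 lay 71 bp downstream with signal 101 (rank 7081), and its replicate ranks were 6647, 8598 and 10162. A second RD summit, 17962633, lay 819 bp upstream with signal 126 (rank 5450). At RE, summit 18061879 lay 426 bp upstream with signal 147 (rank 4509) and replicate ranks of 5512, 3779 and 3726. At RF, summit 18065293 lay 597 bp upstream with signal 176 (rank 3552) and replicate ranks of 3109, 4742 and 3423. Thus the RC summit was the only one of these in the strongest 10.

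RB and RG had no optimal summit within 1 kb. At RB the nearest was 18057944, 1654 bp downstream, and of the whole lists only replicate 1 had a region within 1 kb, at rank 17410. At RG the nearest was 18029749, 3717 bp upstream. Within 1 kb of RG, the best regions had ranks 20915, 21593 and 14597 in replicates 1, 2 and 3 and 15515 in the pooled list, far below the end of the top lists in each.

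Within 1 kb of any protein-coding start lay 6 of the 40 Eip75B summits (15.0%, exact Clopper-Pearson 95% interval 5.71 to 29.8%), against 42.4% of all optimal summits. In introns lay 35 of the 40 (87.5%, interval 73.2 to 95.8%), against 54.6%. Intron length was not matched in either share.

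Of the 40 Eip75B summits, 24 were in a top region of all 3 replicates (60.0%, interval 43.3 to 75.1%), against 65.2% of all optimal summits. A further 10 were in 2 replicates (25%), against 24.1% of all, and 6 in 1 (15.0%), against 10% of all. None was in 0 replicates, as for all but 0.654% of the whole list. Recovery went with signal, which is partly built in, because the top lists are themselves cut by signal. Of the 24 Eip75B summits in the upper part of the optimal list (rank 3901 or better), 20 were in all 3 (83.3%, interval 62.6 to 95.3%), against 94.5% of all such summits. Of the 16 in the lower part, 4 were in all 3 (25%, interval 7.27 to 52.4%), against 36% of all such summits. The ranks of the 36 summits covered in all 3 whole lists correlated with Spearman's rho of 0.69 between replicates 1 and 2, 0.75 between 1 and 3 and 0.84 between 2 and 3, given as a description over summits of 1 gene.

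**Figure D4:**
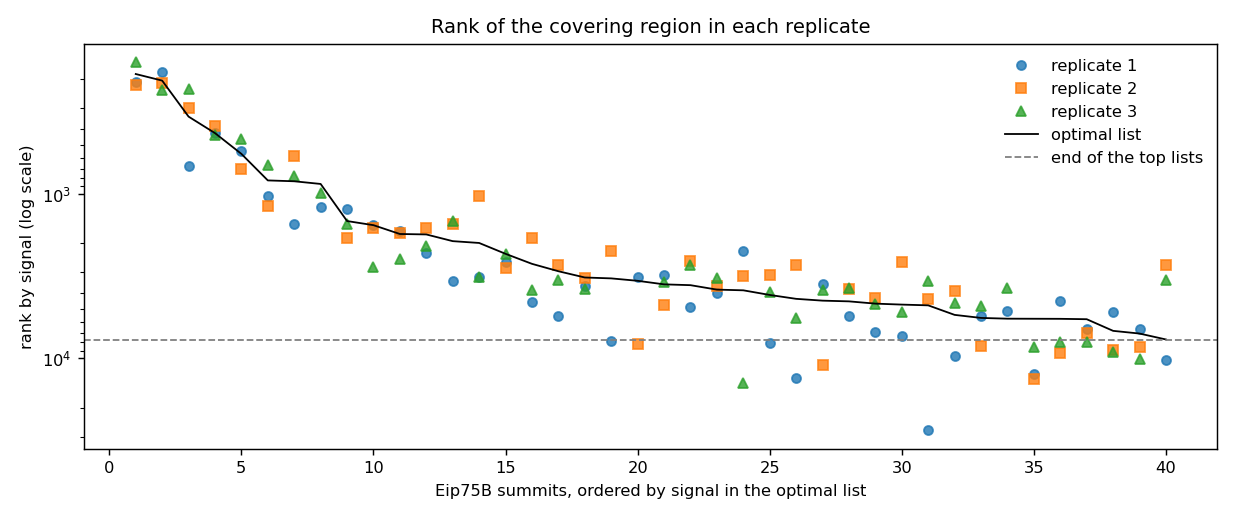
Rank by signal (vertical axis, log scale, strongest at the top) of the region covering each of the 40 Eip75B summits, ordered from left to right by signal in the optimal list. Symbols are the 3 replicates, the line is the optimal list and the dashed line marks the end of the top lists at rank 7803; the spread between replicates widens to the right.

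Some regions stood in a replicate's top list without holding an optimal summit. The highest were at 18057310 in replicate 1 (rank 6654), 18005260 in replicate 2 (rank 831, described above) and 17978582 in replicate 3 (rank 1444), close to the optimal summit 17978629. A replicate 2 region at 18064916, upstream of the RF start, had rank 4264 and no counterpart in the pooled list or the other 2 replicates.

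Other annotated genes in the stretch held few summits. In all, 3 long non-coding RNA genes held 1 each: lncRNA:CR45393 (17947510, 190 bp from its start), lncRNA:CR45921 (17981372, 469 bp) and lncRNA:CR45922 (18037875, 405 bp). None lay in the protein-coding genes CG32192 and CG42393, nor in the parts of lncRNA:CR43174 and the protein-coding gene CG44006 inside the stretch. Most of lncRNA:CR43174 (17934032 to 17946114) lies outside the stretch and was not counted. The pooled list had 71 further regions in the stretch below the optimal list, of which 39 (54.9%) were covered in all 3 whole replicate lists, against 40.1% of the 22197 such regions in all.

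The half-site AGGTCA, searched on both strands within 50 bp of the summit, was present in 3 of the 40 Eip75B windows (7.5%, interval 1.57 to 20.4%), against 2.51% of all optimal windows. It lay 6 to 1 bases before summit 18063303, in the RF to RE interval, 47 to 42 bases before 18037875 and 18 to 23 bases after 18003354. Only the window of 18037875 held the E75 and Hr3 core TAGGTCA, which contains the half-site, against 0.743% of all windows. None of the 10 strongest summits had a half-site within 50 bp.

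GAGAG was present in 11 of the 40 windows (27.5%, interval 14.6 to 43.9%), against 12.2% of all. In summit 17968905 it occurred 7 times, overlaps counted, and in 17972560 3 times. No Eip75B window held ANTAGGTCA (0.295% of all windows), the ftz-f1 site TCAAGGTCA (0.0897%), the inverted repeat of AGGTCA with 1 base between (0%), the zld type CAGGTAG (0.359%), the E-box CACGTG (0.743%), the AP-1 type TGACTCA (0.795%) or the DREF type TATCGATA (0.871%). For a count of 0 of 40 the upper end of the interval is 8.81%, above each of these shares.

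The Eip75B windows were richer in G and C. Their median GC was 45.5% (23.8 to 61.4%), against 32.7% for all optimal windows, and 27 of 40 had at least 40% GC, against 27.3% of all. GC was examined after the data were seen. In the replicate top lists the median was 44.1, 46.0 and 44.6% over Eip75B, against 32.7, 34.7 and 33.7% over all regions, a difference of 11.2 ± 0.286 percentage points (SD, n = 3, exact permutation p = 0.25, the smallest possible). At 300 bp to the left of the summit the medians were 37.6% for Eip75B and 45.5% for all, and at 300 bp to the right 42.6% for Eip75B and 45.5% for all. Among summits in the upper 25% of the list by signal, the median was 44.6% for the 13 of Eip75B and 30.7% for all. Taken over the 10 strongest Eip75B summits alone, it was 33.2%.

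Likewise high medians occurred at ftz-f1 (45.5%), EcR (45.5%), br (46.5%) and Eip74EF (43.6%), while sbb (32.7%), ush (33.7%), Tlk (33.7%), shn (33.7%) and Hr3 (32.7%) were near the value of all windows. Among windows with at least 40% GC, GAGAG was in 9 of 27 of Eip75B (33.3%), against 23.9% of all. It was in 4 of the 10 strongest Eip75B windows, 2 of these 4 with at least 40% GC. Of the genes with a median GC near that of all windows, Tlk had it in 8 of 20 windows, 5 of these 8 with at least 40% GC. The others had it in 4 of 19 (ush), 3 of 26 (sbb), 1 of 16 (shn) and 1 of 11 (Hr3). Whether GC accounts for the share of GAGAG was not tested.

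**Figure D5:**
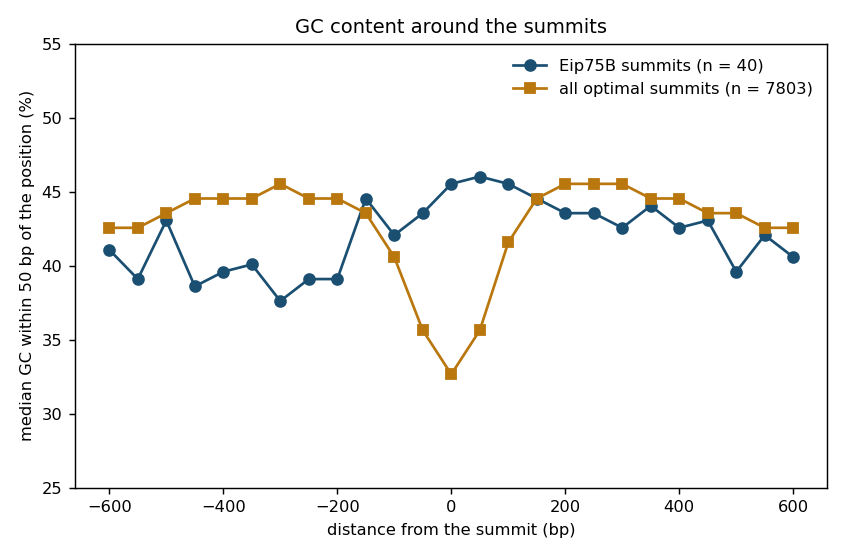
Median GC content of 101-bp windows (vertical axis, from 25 to 55%) at distances from the summit along the plus strand (horizontal axis, bp), for the 40 Eip75B summits and all 7803 optimal summits. At the summit the medians are 45.5% for Eip75B and 32.7% for all optimal summits, where the curve of all summits dips.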

How the data were processed

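The authors deposited peak lists on dm6: 30000 regions for each of 3 replicates and for the replicates pooled, and 7803 optimal peaks. The signal in column 7 is what the authors deposited for each region, and here it only ranks and describes regions of a single list. Per the file lists deposited with the tables, each list came from an alignment and a control; aligner, caller, IDR (irreproducible discovery rate) threshold and depth are not stated in the labels or files. Lists on dm3 were not used.

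A summit is the region start plus the summit offset, 1-based. Gene models were Ensembl release 115 (FlyBase 6.54) on the Release 6 assembly, which also gave the sequences. An optimal summit was found in a replicate when a region of its top list covered it. Scripts (Python 3.11.15, pandas 2.3.3, scipy 1.17.1) were tested on simulated regions. Genes and summits were named by rule: genes in the stretch, the 5 next densest genes of 50 kb or more and 5 ecdysone genes; the 10 strongest summits, the nearest to each start within 1 kb and the highest region of each replicate without an optimal summit. Members and lists were chosen with earlier results of these data known. The p-value does not measure the spread between these 3 replicates. Where all 3 go in 1 direction, sign flips give 0.25 whatever the spread.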

Additional observations from a re-analysis of the deposited data

How the results depend on the processing

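The count of 40 Eip75B summits stayed within 1.5 times under other flanks and with regions merged (33 to 40), and was 24 in the upper part of the optimal list by signal. The mean of the replicate top lists, 39.3, was 105 over the whole lists and 25.3 over the upper part of the top lists, and lay between 38 and 40 with each replicate left out. The density ratio was 3.80 over the whole lists, and between 5.29 and 5.57 with each replicate left out. Found in both remaining replicates were 26 to 28 summits, and 36 were found in all 3 whole lists, against 24 in the top lists. Within 250 bp of a start lay 2 summits in place of 6. GAGAG was in 5 of 40 Eip75B windows at 25 bp, against 5.90% of all optimal windows, and in 22 of 40 at 100 bp, against 26.2% of all. In windows 300 bp to the left it was in 6 of 40, not above the 16.0% of all. In the upper part of the list the intervals held 1 (RF to RE), 3 (RB to RG), 7 (RG to RC), 7 (RC to RA), 4 (RA to RD) and 0 (RD to gene end); RA to RD held 5 merged regions. The cause was not tested, apart from the smaller or larger windows and lists. Of 59 alternatives, 45 moved a value by at most 1.5 times and 14 moved it further. A reversal of direction was checked only for the density ratio, where 0 alternatives fell below 1. Alternatives for GC were chosen after seeing the data. No paired analysis was possible because there is 1 group. Read depth is not given, so the precision it allows is unknown.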
